A study of Homo sapiens with 6 samples.

Results

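Respiratory complex I, the NADH:ubiquinone oxidoreductase of the inner mitochondrial membrane, was followed through the probes whose platform gene symbol starts with NDUFA, NDUFAB, NDUFAF, NDUFB, NDUFC, NDUFS or NDUFV. This rule found 58 of the 47225 probes of an Illumina expression BeadChip, and they belonged to 45 of the 20043 genes named on it. Of these genes 36 encode subunits, 8 encode assembly factors and 1, NDUFB2-AS1, is an antisense RNA. RNA came from HCT116, an established human colorectal carcinoma line. The shTCF7L1 group carried a short hairpin RNA against TCF7L1, a DNA-binding TCF/LEF factor of the Wnt pathway, and the shCtrl group carried a control hairpin. Each group had 3 arrays, which the series describes as biological replicates. Only 1 hairpin against TCF7L1 is labelled, in 1 line, which limits the knockdown as a model. The series asks which transcripts differ between these cells.

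Complex I is the largest enzyme of the respiratory chain and the usual entry point of electrons from NADH. It has the shape of a boot: the N module in the matrix oxidises NADH, the Q module passes the electrons over iron-sulphur clusters to ubiquinone, and the membrane arm, with a proximal and a distal part, pumps protons. Core subunits carry out catalysis, accessory subunits hold the complex together, and assembly factors join the modules and then leave. The core subunits of the membrane arm come from mitochondrial DNA and are not covered here.

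Mean bead brightness was 165 to 171 units in the shTCF7L1 arrays and 162 to 177 units in the shCtrl arrays, and a probe was counted as detected at a detection p below 0.01. All arrays lay on a single chip with each group in neighbouring positions, so chip position and group cannot be told apart. On the second principal component shTCF7L1 replicate 3 lay at 24.9, the other shTCF7L1 arrays at -13.9 and -12.5, and the shCtrl arrays at -0.35 to 1.04. The TCF7L1 probe was dim, detected on 0 of 3 shTCF7L1 arrays and on 2 of 3 shCtrl arrays, with log2 levels of 4.34, 4.44 and 4.24 in shTCF7L1 and 5.04, 4.67 and 4.90 in shCtrl. Its log2 difference of -0.53 (SE 0.20) did not pass the threshold (limma adjusted p = 0.0800). The authors' background-subtracted values, with those below 1 set to 1, gave -2.66 (limma adjusted p = 0.0272). For a probe so near background that size depends on the subtraction and the floor, so it does not measure the knockdown. The brightness summed over 8 epithelial markers was 7175 to 9751 units in shTCF7L1 and 7959 to 9955 units in shCtrl. Of these 8 markers 6 passed the detection filter, and VIL1 was detected on no array. The median log2 difference of the 6 that passed the filter was -0.19, close to that of the complex I subunits (-0.21). KRT8 fell by 0.82 (limma adjusted p = 0.0305), and KRT18 (-0.37, adjusted p = 0.198) and CDH1 (-0.53, 0.0777) also had every shTCF7L1 value below every shCtrl value, while EPCAM (0.42), CDX2 (0.08) and KRT19 (-0.02) overlapped. Of 9 stromal, endothelial and blood markers with a probe, COL1A1 alone passed the filter (it rose by 1.14, adjusted p = 0.0116), 5 (PTPRC, CD3E, PDGFRB, PECAM1 and HBB) were detected on no array, and the sum was 333 to 433 units in shTCF7L1 and 294 to 306 units in shCtrl. The part of these marker levels in the results was not tested. In such bulk RNA, fewer cells of a type and less RNA per cell cannot be told apart.

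Most complex I genes were well measured. Of the 58 probes 48 were detected on at least 3 of the 6 arrays and were kept, 44 of them on all 6. They stood for 40 genes, with the brightest kept probe on average standing for a gene, and these were tested within the fit of all 10470 detected genes. The 5 genes without a kept probe were NDUFA5 of the Q module, NDUFS6 of the N module, NDUFB1 and NDUFB4 of the distal arm, and NDUFB2-AS1. Each of their 7 probes was undetected on all 6 arrays, including all 3 probes of NDUFB4, so nothing is said of their change. Among kept genes NDUFS1, NDUFC2 and NDUFAF8 were near the detection limit (5, 3 and 4 of 6 arrays).

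The promoter entries of 8 members showed a shared sequence feature, and the stretches that hold it are printed because it lies at a like place, just after the start site and in the same orientation, in each of them. RefSeq promoters (GRCh38.p14, 250 bases before to 50 after each start site) were listed for 39 of the 44 protein-coding members; NDUFAF6, NDUFB5, NDUFB9, NDUFC2 and NDUFS5 had none. Letters of 4 motifs were searched on both strands: GCGCATGC of NRF1 and CCGGAAG of ETS factors such as GABPA, both known regulators of nuclear respiratory genes, AAGATGGC of YY1, and CTTTGAT of TCF/LEF factors. The YY1 letters stood in 8 of 39 members (20.5%), against 4.66% of 15843 protein-coding genes. In all 8 members they read forward within the 50 bases after a start site, as they did in 2.50% of all genes, and there they began 10 to 26 bases after it. The YY1 letters contain ATG, the letters of a start codon. Whether they overlap the start of the coding sequence, which would by itself give this orientation, was not tested. The ETS letters stood in 7 members (17.9%, against 16.5% of all genes) and the NRF1 letters in 8 (20.5%, against 4.89%). Both the YY1 and the NRF1 letters occurred in every module and among the assembly factors, the NRF1 letters at varied places and in both orientations. The full NRF1 palindrome of 10 letters stood in 3 members (7.69%, against 1.99%). The TCF/LEF letters stood in 0 of 39 members and in 2.61% of all genes. The stretches below run 5′ to 3′ on the gene's strand, and capitals mark the YY1 letters and, in NDUFAF8, also the ETS letters; no motif overlapped another in a member.
NDUFA6, N module, chr22:42090737-42090766, minus strand: gtggagtggatgctttggcAAGATGGCggg
NDUFA7, N module, chr19:8321351-8321380, minus strand: ccttcagtatcgcggacggAAGATGGCgtc
NDUFS4, N module, chr5:53560641-53560670, plus strand: cctggcgtttgcctgcagcAAGATGGCggc
NDUFS7, Q module, chr19:1383905-1383934, plus strand: ttgtctgaaggccgaggccAAGATGGCggt
NDUFA3, proximal arm, chr19:54102857-54102886, plus strand: tgtcgccgccgcggagacaAAGATGGCtgc
NDUFA9, proximal arm, chr12:4649105-4649134, plus strand: tcgtgggggattgtgggaaAAGATGGCggc
NDUFB8, distal arm, chr10:100529844-100529873, minus strand: gggaaacgtgaagaaggtgAAGATGGCggt
NDUFAF8, assembly factor, chr17:81239308-81239337, plus strand: aCCGGAAGaggacggacctAAGATGGCggc

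The subunit genes shifted little. Of 32 tested subunit genes 2 fell, NDUFB5 and NDUFB3, and 30 did not pass an adjusted p of 0.05 (limma, Benjamini-Hochberg over all 10470 genes). Over all genes 15% passed, 7.11% in the downward direction, so 2 of 32 (6.25%) is no larger a share than the background. Of the 8 assembly factor genes 2 fell (25%), NDUFAF8 and NDUFAF1, and NDUFAF8 was detected on only 1 of 3 shTCF7L1 arrays. No complex I gene rose at this threshold, against 7.85% of all genes, and at an unadjusted p below 0.05 as well 0 of 40 were higher while 6 were lower (15.8% and 14% of all genes, 29.8% in either direction). None of the 40 changed 2-fold or more, which 4.25% of all genes did.

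The 32 subunit genes, NDUFB5 and NDUFB3 included, had more negative than positive values. The median log2 difference (shTCF7L1 minus shCtrl) was -0.21 over the 32 subunit genes, against 0.02 over all genes. Of these 32 genes 21 (65.6%) were negative, against 48% of all genes. A like share was negative in complexes II to V (66.7%) and among markers of mitochondrial mass (64.3%). The share was 45.5% for iron-sulphur cluster makers, 41.7% for regulators of mitochondrial biogenesis and 35.7% for further assembly factors. The middle range of the subunit genes, from the lower to the upper quartile, ran from -0.33 to 0.06, against -0.27 to 0.31 for all genes. In 9 subunit genes (28.1%) all 3 shTCF7L1 values lay below all 3 shCtrl values, which held for 15.8% of all genes, and in 1 gene, NDUFA3, all lay above (18.1% of all genes, 33.9% in either direction). The subunits' median deviation from the shCtrl mean was -0.06, -0.20 and -0.15 in shTCF7L1 replicates 1, 2 and 3, with 17, 25 and 19 of 32 genes below that mean. The shCtrl arrays lay at -0.04, 0.04 and -0.00 around their own mean. Members are not replicates of a condition, so these medians are descriptions without a test.

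**Figure D1:**
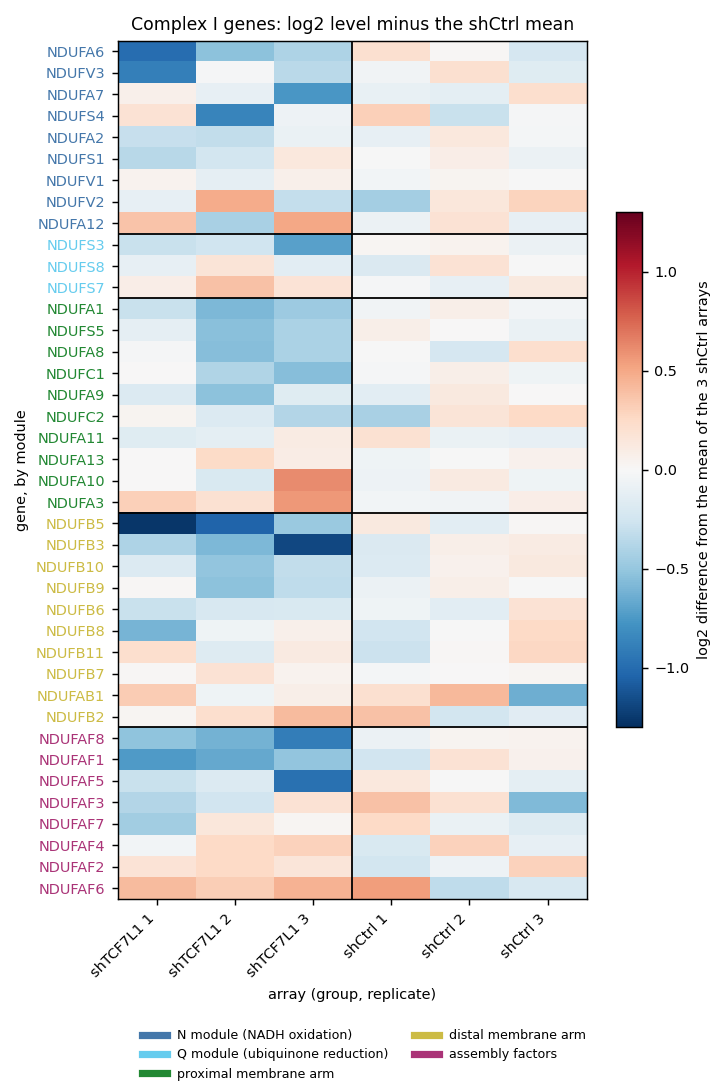
Normalized log2 level of each of the 40 tested complex I genes (rows, coloured by module) in each array (columns, the 3 shTCF7L1 arrays left of the 3 shCtrl arrays), minus the mean of the 3 shCtrl arrays. NDUFB5, NDUFB3, NDUFAF8 and NDUFAF1, which passed, are among 12 rows (30%) whose 3 shTCF7L1 values all lie below the 3 shCtrl values. This held for 15.8% of all genes.

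The distal membrane arm, the far end of the proton-pumping part, held both subunit genes that fell. These were 2 of 10 tested (20%, against 7.11% of all genes). Its median was -0.21, beside -0.24 in the N module, -0.23 in the proximal arm and -0.02 in the Q module. Negative values made up 60% of its genes, against 66.7%, 70% and 66.7% in those modules. NDUFB5, an accessory subunit of this arm, had the largest difference of all members. Its log2 level was 9.62, 9.84 and 10.41 in the shTCF7L1 arrays, against 11.01, 10.75 and 10.90 in the shCtrl arrays. The groups did not overlap, and shTCF7L1 replicate 3 was nearest to the controls. The log2 difference was -0.93 (SE 0.22, 1.90-fold lower, 95% interval -1.40 to -0.46, limma adjusted p = 0.0111). The call ended without shTCF7L1 replicate 1 (adjusted p = 0.0567), with the authors' processed values (0.0508) and without a detection filter (0.0547), while the difference stayed between -1.15 and -0.76.

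NDUFB3, a small membrane-anchored subunit of the same arm whose mutation causes complex I deficiency, fell according to 1 of its 2 probes. The probe of higher mean had log2 levels of 10.53, 10.35 and 9.74 in the shTCF7L1 arrays, against 10.74, 11.00 and 11.04 in the shCtrl arrays. All knockdown values were lower, with shTCF7L1 replicate 3 lowest, and the gene fell by 0.72 (1.65-fold, SE 0.23, limma adjusted p = 0.0416). The other probe had 10.75, 10.84 and 9.59 in shTCF7L1 and 10.34, 10.88 and 10.70 in shCtrl. There shTCF7L1 replicate 3 alone was low, the groups overlapped, and the difference was -0.25 (SE 0.29, limma adjusted p over all kept probes = 0.610). The mean of both probes gave -0.49 (adjusted p = 0.203), and without shTCF7L1 replicate 3 the higher probe gave -0.49 (0.164). Left without any other single array except shTCF7L1 replicate 1, NDUFB3 did not pass either (0.0574 to 0.122).

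NDUFB6, another accessory subunit of the distal arm, also had probes of different size. The probe that stands for the gene had 9.38, 9.46 and 9.47 in shTCF7L1 and 9.61, 9.54 and 9.86 in shCtrl, a difference of -0.23 that did not pass (SE 0.19, adjusted p = 0.456). Its other probe had 8.72, 8.69 and 8.49 in shTCF7L1 and 9.26, 9.49 and 9.08 in shCtrl. In both the groups were apart. The other probe passed when each kept probe was tested by itself (-0.64, SE 0.20, limma adjusted p = 0.0438 over 16835 probes, of which 13% passed, 6.58% downward). This gene was singled out after its values were seen.

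The remaining distal arm genes gave values on both sides of 0. NDUFB10, a twin-cysteine protein of the intermembrane space, had a difference of -0.34 (95% interval -0.76 to 0.08) with groups that did not overlap. NDUFB9, which carries a LYR motif, and NDUFB8 had -0.28 and -0.20. NDUFB2 had 0.22, NDUFB7 0.08 and NDUFB11 0.06. NDUFAB1, the mitochondrial acyl carrier protein that LYR subunits bind and that also serves lipoic acid and iron-sulphur synthesis, had 0.12 (-0.42 to 0.65), with shCtrl replicate 3 (9.87) below the other shCtrl arrays (10.70 and 10.93).

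**Figure D2:**
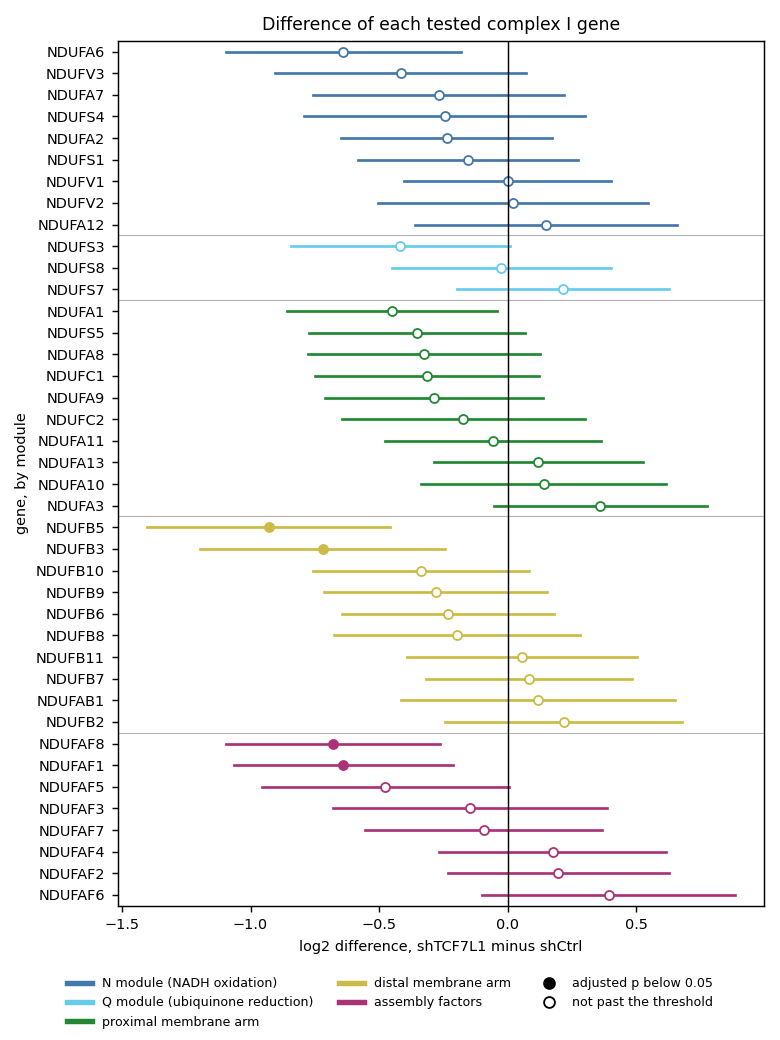
Log2 difference, shTCF7L1 minus shCtrl, of the 40 tested complex I genes by module, with bars for the 95% interval of limma and filled points for an adjusted p below 0.05. The 4 filled points are NDUFB5, NDUFB3, NDUFAF8 and NDUFAF1, all to the left of 0, and the intervals of 34 genes span 0.

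The N module held 9 tested genes, with a median of -0.24. None passed in limma, where 15% of all genes did, and 0 passed with a trended robust variance. An unadjusted p below 0.05 was met by 1, against 29.8% of all genes. Nearest to the threshold was NDUFA6, a LYR subunit that holds an acyl carrier protein at the join of the N and Q modules. It had 7.05, 7.50 and 7.64 in the shTCF7L1 arrays, against 8.24, 8.05 and 7.81 in the shCtrl arrays. The groups did not overlap, and the difference of -0.64 (SE 0.22, 95% interval -1.10 to -0.18) gave an adjusted p of 0.0566 in limma. It passed without background correction (0.0487) and in the fit on means of probes (0.0475).

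No catalytic subunit of the N module passed. NDUFV1, which holds the flavin and the NADH site, had 9.42, 9.26 and 9.44 in the shTCF7L1 arrays, against 9.34, 9.41 and 9.37 in the shCtrl arrays. The shCtrl values lay within the range of the shTCF7L1 values, and the interval of the difference was -0.40 to 0.40. NDUFV2, an iron-sulphur subunit beside it, had a difference of 0.02 (-0.50 to 0.54), with a wide spread in both groups (SD 0.42 and 0.39). NDUFS1, the large iron-sulphur subunit, was dim and had -0.15 (-0.58 to 0.27). The accessory subunits NDUFV3 (-0.42), NDUFA7 (-0.27), NDUFS4 (-0.25), whose loss causes Leigh syndrome, and NDUFA2 (-0.24) had negative values. NDUFA12 had 0.15, and none of these passed.

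Of the Q module 3 genes were tested, with a median of -0.02. None passed in limma, where 15% of all genes did, and 0 passed with a trended robust variance. An unadjusted p below 0.05 was met by 0, against 29.8% of all genes. NDUFS3, a core subunit, had 10.32, 10.36 and 9.91 in the shTCF7L1 arrays, against 10.64, 10.66 and 10.53 in the shCtrl arrays. The groups were apart, but the difference of -0.42 (-0.84 to 0.01) did not pass (adjusted p = 0.177). NDUFS8, an iron-sulphur subunit, had -0.02 (-0.45 to 0.40). NDUFS7, which holds the last cluster before ubiquinone, had 0.22 (-0.20 to 0.63).

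In the proximal membrane arm 10 genes were tested, with a median of -0.23. None passed in limma, where 15% of all genes did, and 0 passed with a trended robust variance. An unadjusted p below 0.05 was met by 1, against 29.8% of all genes. NDUFA1, an X-linked subunit needed for the membrane arm, had 11.02, 10.72 and 10.83 in the shTCF7L1 arrays, against 11.27, 11.38 and 11.27 in the shCtrl arrays. All knockdown values were lower, and the difference was -0.45 (-0.86 to -0.04, adjusted p = 0.129). NDUFS5 and NDUFA8, twin-cysteine proteins of the intermembrane space, had -0.35 and -0.33. NDUFC1, NDUFA9, NDUFC2 and NDUFA11 had -0.31, -0.29, -0.17 and -0.06.

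The only member whose 3 knockdown values all lay above the controls was NDUFA3, a small membrane subunit. It had 10.33, 10.22 and 10.59 in the shTCF7L1 arrays, against 9.98, 9.97 and 10.10 in the shCtrl arrays, and the difference of 0.36 (-0.05 to 0.78) did not pass (adjusted p = 0.232). NDUFA13, also known as GRIM-19, had 0.12. NDUFA10 had 0.14 by 1 probe, with shTCF7L1 replicate 3 (9.18) above the other 5 arrays, and -0.08 by its other probe.

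**Figure D3:**
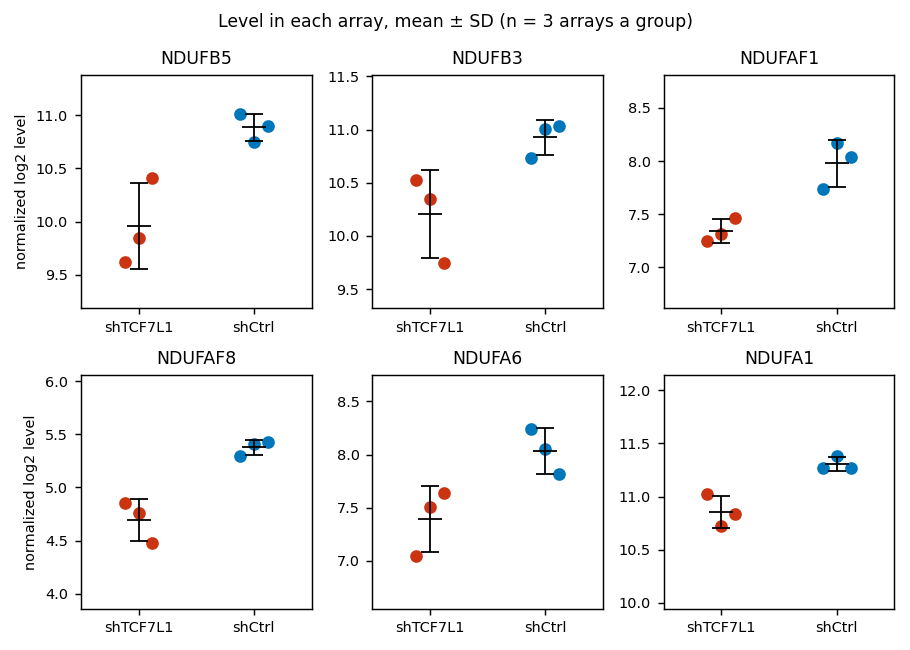
Normalized log2 level in each array (points), with the mean and SD of the 3 shTCF7L1 arrays (left, red) and the 3 shCtrl arrays (right, blue), for the 4 genes that passed and for NDUFA6 and NDUFA1, which did not. Each panel spans the same log2 range, and in all 6 genes every shTCF7L1 point lies below every shCtrl point. The 6 are among the 12 of 40 members (30%) for which this held, against 15.8% of all genes. NDUFAF8 was detected on only 1 of the 3 shTCF7L1 arrays.

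Among assembly factors, the proteins that build complex I and are absent from the finished enzyme, 2 of 8 fell (25%), against 7.11% of all genes. Of these 2, NDUFAF8 met the detection filter mainly through shCtrl, the group where it was higher. With detection required on all arrays, 1 of 7 fell. The median over all 8 was -0.12. That median turned positive without shCtrl replicate 1 (0.039) or shTCF7L1 replicate 1 (0.029). NDUFAF1 belongs to the assembly complex that builds the membrane arm. It had 7.25, 7.31 and 7.47 in the shTCF7L1 arrays, against 7.74, 8.17 and 8.04 in the shCtrl arrays. The knockdown arrays lay close together and below all controls, and the gene fell by 0.64 (1.56-fold, SE 0.20, 95% interval -1.06 to -0.21, limma adjusted p = 0.0416). NDUFAF1 did not pass without any single array except shCtrl replicate 1 (0.0563 to 0.138), with median scaling (0.0620) or with the authors' values (0.116).

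NDUFAF8 works as a partner of NDUFAF5. It was dim, detected on 1 of 3 shTCF7L1 arrays and on 3 of 3 shCtrl arrays, with 4.86, 4.76 and 4.47 in shTCF7L1 and 5.30, 5.41 and 5.42 in shCtrl. The groups did not overlap, and NDUFAF8 fell by 0.68 (1.60-fold, SE 0.20, limma adjusted p = 0.0283). Its size depended on the background: it was -0.33 with an offset of 50 (adjusted p = 0.105) and -1.32 with the authors' values (0.0480), and it did not pass without any single array except shTCF7L1 replicate 1 (0.0574 to 0.0974). NDUFAF5, an enzyme that hydroxylates an arginine of NDUFS7, had 7.31, 7.41 and 6.63 in shTCF7L1 and 7.73, 7.59 and 7.46 in shCtrl. These groups were apart too, but the difference of -0.48 did not pass (adjusted p = 0.171), and its other kept probe gave -0.27.

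The other assembly factors gave values between -0.15 and 0.39. NDUFAF3 and NDUFAF4, which work together on the Q module, had -0.15 and 0.18. NDUFAF2, a late factor related to NDUFA12, had 0.20. NDUFAF6, needed for the part around the ND1 subunit, had 0.39 (-0.10 to 0.88), with shCtrl replicate 1 (6.73) above the shTCF7L1 arrays (6.60, 6.50 and 6.64). NDUFAF7, a mitochondrial methyltransferase needed for complex I assembly, depended on the probe: 3 probes gave -0.09, -0.18 and 0.64, the last with 6.32, 5.84 and 6.39 in shTCF7L1 and 5.52, 5.20 and 5.90 in shCtrl and a limma adjusted p of 0.0758 over all kept probes. Its groups overlapped. NDUFV3 differed between its probes as well, with -0.42 and 0.07.

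**Figure D4:**
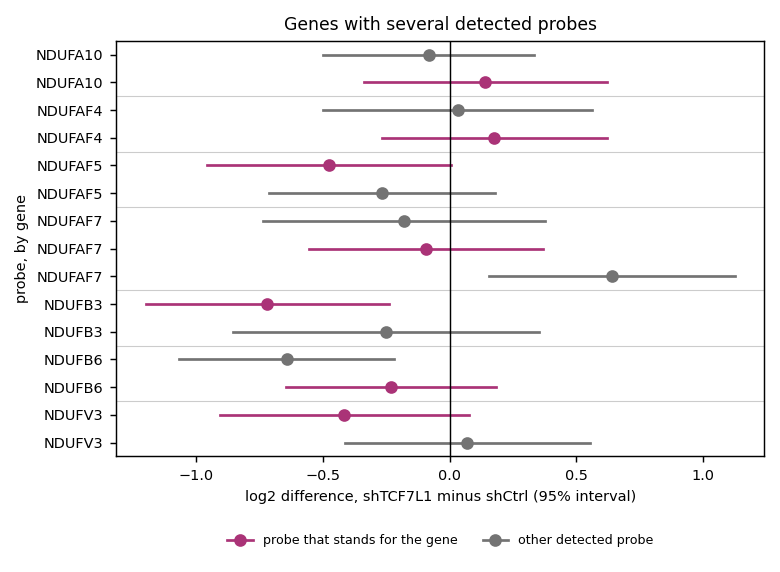
Log2 difference, shTCF7L1 minus shCtrl, with the 95% interval of limma, of each kept probe of the 7 complex I genes with several kept probes. Probes of NDUFA10, NDUFAF7 and NDUFV3 lie on both sides of 0, and those of NDUFB3 and NDUFB6 are negative with different sizes.

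The differences were also set beside the promoter motifs. The 8 genes printed above had a median difference of -0.26, against -0.09 for the 27 other tested members with a promoter entry, and 1 of the 8, NDUFAF8, passed. The 7 genes with ETS letters had a median of -0.15 and the 28 others -0.17, and the 5 tested genes with the 8-letter NRF1 motif had -0.33 and the 30 others -0.15. These medians carry no test, and a match of letters shows no binding.

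Lists of genes that work with complex I were measured beside it. The 14 further assembly factors tested (such as ACAD9, ECSIT and TIMMDC1) had a median of 0.04. The median of the 8 named above was -0.12, but 0.039 without shCtrl replicate 1. Among the 14, LYRM2, a LYR protein tied to the N module, rose by 0.81 (1.75-fold, SE 0.21, adjusted p = 0.0186). The call of LYRM2 was lost when shCtrl replicate 1 (adjusted p = 0.0773), shTCF7L1 replicate 1 (0.0692) or shTCF7L1 replicate 2 (0.0751) was left out, and without a detection filter (0.0557). The 11 genes that make iron-sulphur clusters had a median of 0.04 and none passed in limma, against 15% of all genes. At an unadjusted p below 0.05, 2 were higher and 1 lower, while 15.8% and 14% of all genes were. Complexes II to V, with 36 nuclear genes tested, had a median of -0.16, against -0.21 for the complex I subunits. In these complexes 3 genes fell (8.33%, against 7.11% of all genes) and 1 rose. In either direction 11.1% passed, against 15% of all genes. The largest fall there was that of UQCR11, a small complex III subunit, at -0.98 (SE 0.23, adjusted p = 0.00866), and ATP5MF of the ATP synthase fell by 0.71 (SE 0.22, adjusted p = 0.0360). UQCR11 lost its call with the authors' values and without a detection filter (adjusted p up to 0.0580). COX5B fell by 0.87, and ATP5F1D, of the ATP synthase, rose by 0.71.

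General mitochondrial genes were measured beside them. Of 14 genes taken as markers of mitochondrial mass 2 fell (14.3%, against 15% of all genes in either direction and 7.11% downward). Both belong to the outer-membrane import pore, and the median of the 14 was -0.07. TOMM40, the channel protein of that pore, had a difference of 0.36 that did not pass (adjusted p = 0.408). TOMM20 had 10.29, 10.25 and 10.10 in shTCF7L1 and 10.94, 11.13 and 11.00 in shCtrl (-0.81, SE 0.19, adjusted p = 0.0102), and TOMM22 differed by -0.74 (SE 0.21, adjusted p = 0.0252). Of 12 regulators of mitochondrial biogenesis 1 fell and 2 rose (25% in either direction, against 15% of all genes). TFAM, which packs mitochondrial DNA and helps its transcription, fell by 0.69 (SE 0.22, adjusted p = 0.0440). The coactivator PPRC1 rose by 0.83 (SE 0.23, adjusted p = 0.0236) and the mitochondrial DNA polymerase POLG by 0.75 (SE 0.23, adjusted p = 0.0416). TOMM20 passed in all 18 alternatives run, whereas PPRC1 lost its call in 5 of them, TFAM, TOMM22 and POLG in 7, ATP5MF in 8, ATP5F1D in 9 and COX5B in 11. Their part in the complex I values was not tested.

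**Figure D5:**
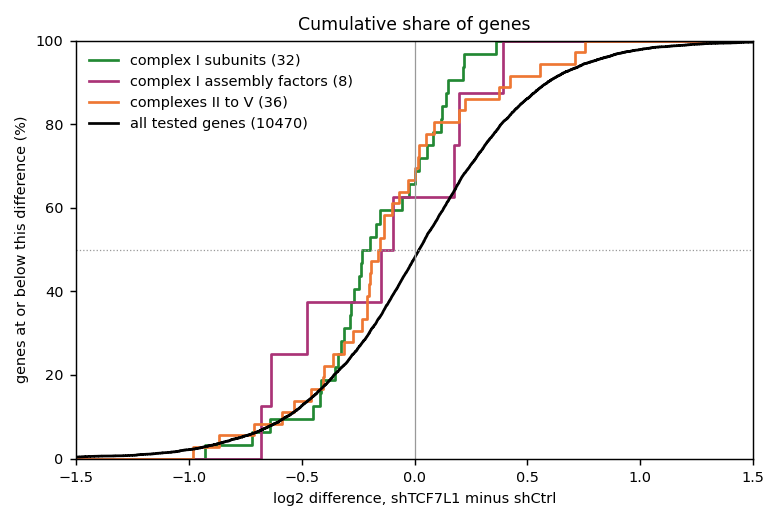
Share of genes (%, vertical) at or below each log2 difference, shTCF7L1 minus shCtrl (horizontal), for the 32 complex I subunits, the 8 assembly factors, 36 genes of complexes II to V and all 10470 tested genes. The subunit curve crosses 50% at -0.21, left of the curve of all genes (0.02), and ends at 0.36, while the curve of all genes runs beyond both edges of the plot.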

How the data were processed

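Intensity (the mean bead signal) and a detection p-value per probe and array were deposited by the authors, with GenomeStudio 2011.1 named per the submitters' processing notes. The authors' series matrix holds background-subtracted intensity scaled to 1 mean per array, as its values show, and served as an alternative. There values below 1 were set to 1 before the log2 step, and 27.8 to 29.7% of values per array were at or below 0. Intensities were corrected with normexp from detection p-values (offset 16), quantile normalized and log2-transformed by neqc (limma 3.58.1, R 4.3.3). Probes with a detection p below 0.01 on at least 3 of 6 arrays were kept (16835), and the kept probe with the highest mean stood for each of 10470 genes. Symbols came from the platform annotation, updated by Entrez identifier through RefSeq for 30071 of 30110 probes with 1 symbol; 8 probes had several and 17107 are not listed there.

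Groups were compared with limma (lmFit, eBayes, 2-sided, no block), called at an adjusted p below 0.05, and the script was tested on simulated data. The exact permutation test of 3 against 3 arrays cannot go below 0.1 and was 0.1 for the 4 genes called. Replicate numbers did not pair the arrays (deviation correlations of -0.01 for each number). Named genes were TCF7L1, called members, the 3 largest differences each way per module, genes whose probes differed in sign or by over 0.5, and up to 4 called genes of each further list; other members named were chosen after their values were seen. The members, lists and motifs were chosen with earlier results of these data known; the NRF1 motif was shortened to 8 letters after its counts were seen, and both lengths are given. The 18 alternatives changed normalization, background, filter, probe choice, variance model, weights, block or left out an array.
Promoters came from RefSeq (GRCh38.p14).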

Additional observations from a re-analysis of the deposited data

How the results depend on the processing

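Values of the alternatives are given where they moved. The count of subunit genes past the threshold, 2, was 0 with the authors' processed values and 0 without a detection filter, and 1 with the replicate block; leaving out any single array gave 1. It was 3 without background correction, and 3 subunit probes passed when probes were tested singly. The count of assembly factors, 2, was 1 with median scaling, with a background offset of 50, without background correction, with the authors' values, with detection on all arrays and with the replicate block, and 0 to 1 with a single array left out. Over all genes, 1566 became 1033 with the authors' values and 1007 to 1156 with an array left out. Without shTCF7L1 replicate 3, NDUFB5 passed and NDUFB3, NDUFAF1 and NDUFAF8 did not. The replicate block ended the calls of NDUFB3 (adjusted p = 0.0537) and NDUFAF1 (0.0530) and no other call of a complex I gene. The subunits' median stayed negative, from -0.28 to -0.17, as did that of the distal arm (-0.29 to -0.11), whereas that of the assembly factors ran from -0.31 to 0.039 and changed sign without shCtrl replicate 1 (0.039) or shTCF7L1 replicate 1 (0.029), and that of the Q module from -0.12 to 0.07. With the authors' values the median of all genes was 0.13 in place of 0.02, and 68.6% of calls were increases against 52.5% here, beside a subunit median of -0.18 there. Of 28 members named by the rule 23 kept their side of the threshold in every alternative run, and all 23 were genes not called here. No called member kept its call in every alternative. NDUFB5 lost it in 3, NDUFAF8 in 7, NDUFAF1 in 8 and NDUFB3 in 9. NDUFA6 alone passed in an alternative but not here. The number of arrays limits precision, and NDUFS1, NDUFC2, NDUFAF8 and the dimmer NDUFV3 probe were near background.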
